A study of Mus musculus with 16 samples.

Results

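CC chemokines are small secreted proteins, named for a pair of adjacent cysteines, that draw leukocytes out of the blood and into inflamed tissue. The set described here held the 10 genes Ccl2, Ccl3, Ccl4, Ccl6, Ccl7, Ccl8, Ccl9, Ccl11, Ccl12 and Ccl22, of which 9 were among the 26781 genes tested on the array. A probe was assigned to a member when the RefSeq accession printed beside it belonged to that symbol, and each of the 10 genes was matched by 1 probe. Expression was measured by 1-colour microarray, which reads how brightly dye-labelled cRNA binds each probe, in the bladder body of C57BL/6 mice with no transgene and no treatment named. Mature mice (MAT) were 12 months old and aged mice (AGED) 27 to 30 months old, and each age and sex was represented by 4 arrays. The study's methods name as many bladders per group as there are arrays, which would be 1 bladder to an array, but the labels tie no array to an animal, and the p-values measure the spread between arrays.

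Each ligand calls in the cells that carry its receptor. Ccl2, Ccl7 and Ccl12 act on Ccr2 of inflammatory monocytes, Ccl8 acts in the mouse on Ccr8, and Ccl11 (eotaxin) acts on Ccr3 of eosinophils. Ccl3 and Ccl4 are macrophage inflammatory proteins that draw in monocytes and T cells, and Ccl6 and Ccl9 are myeloid chemokines of rodents that act on Ccr1. Ccl22 acts on Ccr4 of T cells. In the bladder such ligands are made by tissue macrophages and by stromal and epithelial cells under injury or infection.

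According to the gene order of RefSeq (mouse assembly GRCm38.p6), 9 of the 10 genes lie together on chromosome 11, in the order Ccl2, Ccl7, Ccl11, Ccl12, Ccl8, then Ccl9, Ccl6, Ccl3 and Ccl4 beyond Ccl1, Ccl5 and the pseudogene Ccl16-ps. Ccl22 lies apart from them on chromosome 8, beside Ccl17. The RefSeq promoter table held an entry for 6 of the 10 genes, namely Ccl3, Ccl6, Ccl8, Ccl9, Ccl12 and Ccl22, and had none for Ccl2, Ccl4, Ccl7 and Ccl11. The 250 bases before the start site are printed for Ccl6 and Ccl9, whose AGED and MAT females did not overlap, and for the neighbours Ccl12 and Ccl8, in each case 5′ to 3′ on the strand of the gene. They lie at chr11:83593088-83593337 (minus strand), chr11:83578637-83578886 (minus strand), chr11:82101595-82101844 (plus strand) and chr11:82114935-82115184 (plus strand). Capitals mark a match to 1 of 5 short motifs.
Ccl6: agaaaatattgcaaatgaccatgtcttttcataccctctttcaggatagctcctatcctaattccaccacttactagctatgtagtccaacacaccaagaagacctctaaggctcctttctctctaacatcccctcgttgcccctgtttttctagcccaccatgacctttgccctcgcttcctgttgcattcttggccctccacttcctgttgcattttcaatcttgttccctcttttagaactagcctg
Ccl9: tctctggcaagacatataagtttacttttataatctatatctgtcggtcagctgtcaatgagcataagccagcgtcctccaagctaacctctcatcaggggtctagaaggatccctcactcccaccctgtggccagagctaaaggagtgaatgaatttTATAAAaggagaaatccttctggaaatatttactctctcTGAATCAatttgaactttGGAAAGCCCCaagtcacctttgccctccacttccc
Ccl12: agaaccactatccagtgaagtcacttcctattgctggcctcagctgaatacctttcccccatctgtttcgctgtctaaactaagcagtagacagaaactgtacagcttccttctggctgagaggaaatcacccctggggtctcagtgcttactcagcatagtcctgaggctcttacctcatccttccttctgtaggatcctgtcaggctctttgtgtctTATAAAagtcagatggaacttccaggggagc
Ccl8: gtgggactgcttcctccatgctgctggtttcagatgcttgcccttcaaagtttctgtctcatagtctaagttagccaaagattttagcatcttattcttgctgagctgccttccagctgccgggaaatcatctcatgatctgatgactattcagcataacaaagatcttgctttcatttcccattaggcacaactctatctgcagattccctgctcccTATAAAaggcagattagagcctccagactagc
The motifs were TATAAA on the strand of the gene and, on both strands, the NF-kB consensus, TGANTCA (AP-1), TTCNNNGAA (STAT) and GAAANNGAA (core of the interferon-stimulated response element, ISRE). TATAAA stood at -31 to -26 in Ccl12, at -32 to -27 in Ccl8 and farther out, at -92 to -87, in Ccl9. Ccl9 also held an AP-1 match at -53 to -47 and an NF-kB match at -35 to -26, and the 3 matches did not overlap each other. Ccl3, whose promoter is not shown, held an ISRE core at -39 to -31, and none of the 5 motifs was found in this window of Ccl6 or Ccl22. Among the 32851 promoters of the same length, TATAAA was found in 7.59%, the NF-kB consensus in 7.25%, the AP-1 motif in 6.75%, the STAT motif in 7.02% and the ISRE core in 7.13%. These matches describe the letters and are not measured binding sites.

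The labelled tissue was borne out by its markers. The mean log2 signal of 6 urothelial genes was 5.84 to 6.42, and that of 6 smooth muscle genes 6.61 to 7.21, above the 75th percentile of the array in all 16 arrays. Every level below is a log2 signal relative to that percentile, so that 0 is the brightness of the upper-quartile probe and a step of 1 is a doubling. A probe was tested if it was well above the local background on at least 4 of 16 arrays. On this criterion 9 of the 10 chemokines were measured on all 16 arrays, whereas the Ccl22 probe reached it on 0 of 16 arrays, so Ccl22 has no level here. The female arrays shared 1 slide and the male arrays another, and MAT arrays lay in the upper and AGED arrays in the lower row of both slides, so sex cannot be told apart from slide, nor age from row. AGED male replicate 1 was the dimmest array, with a 75th percentile of 9.18 (log2 of the processed signal) against 9.90 or more in the other AGED males.

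No chemokine of the set differed between AGED and MAT mice in either sex at a limma Benjamini-Hochberg adjusted p under 0.05 with at least a 2-fold change. This count was 0 of 9 in males, where 0.276% of all genes were called higher and 0.575% lower, and 0 of 9 in females, where 0.179% were called higher and 0.0112% lower. At an unadjusted limma p under 0.05 with no fold limit, 5 of 9 chemokines (Ccl2, Ccl6, Ccl7, Ccl9 and Ccl11) were higher in AGED females, against 4.61% of all genes, and 0 of 9 were lower (5.85% of all genes). In males, 0 of 9 were higher (7.86%) and 0 of 9 lower (8.36%) at that limit. With a fold limit of 2 added, 3 of 9 (Ccl2, Ccl6 and Ccl7) stayed higher in females, against 1.21% of all genes. That count ran from 1 of 9, Ccl6 alone, without MAT female replicate 1 or 4, to 5 of 9 without MAT female replicate 3 or AGED female replicate 1. By the methods' t-test on the same values, at an unadjusted p under 0.05 with that fold limit, 1 of 9 (Ccl6) was higher in females, against 1.01% of all genes. With no test at all, 5 of 9 fitted changes were at least 2-fold up in females (1.58% of all genes) and 0 of 9 in males (1.87%). The groups of 4 did not overlap for 2 of 9 in females, both higher (5.04% of all genes were higher and 5.78% lower without overlap), and for 0 of 9 in males (3.91% higher and 3.91% lower). The fitted change was positive for 9 of 9 in females, against 49.1% of all genes, with a median of 1.15 where the median of all genes was -0.01. In males it was positive for 5 of 9, against 50.2%, with a median of 0.01 where the median of all genes was 0.00. The members shared arrays and, as shown further on, moved together from array to array, so they are not independent of each other.

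**Figure D1:**
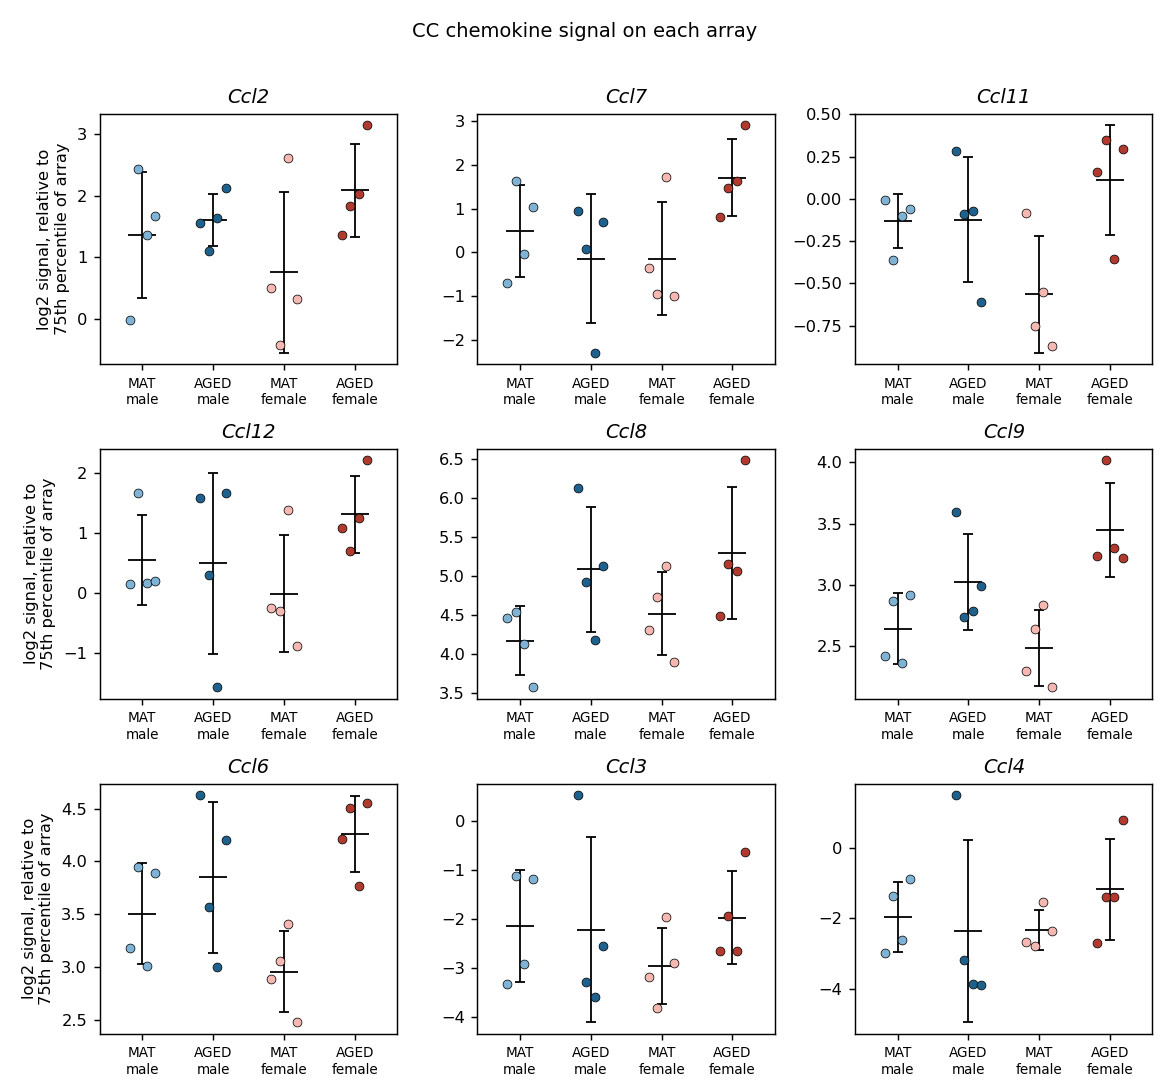
Log2 signal of 9 CC chemokines relative to the 75th percentile of each array (vertical axis, a separate scale per gene) in MAT and AGED males and females; points are arrays, in the order of their replicate numbers, horizontal lines are group means and bars are 1 SD (n = 4). In females, only Ccl6 (AGED from 3.77, MAT up to 3.40) and Ccl9 (AGED from 3.22, MAT up to 2.83) had groups that did not overlap.

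All directions follow the array labels. For Chil3, a chitinase-like protein of macrophages, they run opposite to the study's own list of changed genes, which gives it as lower in aged bladders. The same holds for S100a9, described further on, and the other genes of that list were not compared. On these arrays Chil3 was higher on those labelled AGED, with a log2 change of 5.68 (adjusted p = 5.77e-06) in males and 2.53 (adjusted p = 0.0219) in females by limma. Since the arrays hold bulk tissue, more cells of a type and more RNA per cell cannot be told apart in any value.

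Ccl6 and Ccl9 showed the clearest separation in females. The Ccl6 signal was 2.89, 3.05, 3.40 and 2.48 in the 4 MAT females and 4.21, 4.51, 3.77 and 4.55 in the 4 AGED females. Every AGED female array lay above every MAT female array. The Ccl6 log2 change was 1.31 ± 0.33 (SE), a 2.47-fold difference with a 95% confidence interval of 0.60 to 2.02 on the log2 scale (limma adjusted p = 0.162). For Ccl9 the MAT females gave 2.30, 2.65, 2.83 and 2.17 and the AGED females 3.24, 4.02, 3.31 and 3.22. These groups did not overlap either, and AGED female replicate 2 stood above its 3 companions. The Ccl9 log2 change was 0.96 ± 0.24 (SE), a 1.94-fold difference (95% confidence interval 0.46 to 1.46, limma adjusted p = 0.142). In a two-sided exact permutation test each of both genes gave p = 0.0286, the smallest p that 4 against 4 arrays allow. Over the settings tried, the adjusted p of Ccl6 in females ran from 0.0233 to 0.483 and that of Ccl9 from 0.0232 to 0.441, the lowest of each with arrays weighted by their quality.

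The same genes overlapped in males. Ccl6 was 3.18, 3.94, 3.01 and 3.89 in MAT males and 4.63, 3.57, 3.0 and 4.20 in AGED males (log2 change 0.34 ± 0.33 SE, limma adjusted p = 0.634). Ccl9 was 2.42, 2.87, 2.37 and 2.92 in MAT males and 3.59, 2.74, 2.79 and 2.99 in AGED males (log2 change 0.38 ± 0.24 SE, adjusted p = 0.436). AGED male replicate 1 gave the highest male value of both genes. The age change of Ccl6 was 0.96 lower in males than in females on the log2 scale, with a 95% confidence interval of -1.97 to 0.04 for males minus females (limma adjusted p = 0.529). For Ccl9 that difference was -0.58 (-1.29 to 0.13, adjusted p = 0.616).

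The sign of the male Ccl6 change differed between the processed signal and another background correction, and the change passed the test with neither. Feature Extraction, which turns the scanned image into probe signals, divides out a gradient across the slide and subtracts background to give the processed signal. The ratio of that processed signal to the median brightness of the Ccl6 spot less its local background was 1.52 to 2.55 on AGED male arrays, against 0.93 to 1.02 on MAT males, 0.92 to 0.95 on MAT females and 0.84 to 1.06 on AGED females. With the normexp correction of the median spot brightness in place of the processed signal, the male log2 change of Ccl6 was -0.59 (adjusted p = 0.31), and the female change was 1.22. That setting changed the spot signal and the background method together, so the part of the gradient was not tested. Among the 14736 probes with a mean spot brightness over 1000 units, the 95th percentile of that ratio was 1.76 to 2.19 on AGED male arrays, 1.12 to 1.72 on MAT male arrays and at most 1.15 on female arrays. The Ccl9 ratio stayed between 0.82 and 1.20 on all 16 arrays. The Ccl12 ratio was 1.61 on MAT male replicate 2, against 1.02 to 1.24 on the other MAT males, and 1.70 on AGED male replicate 3.

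**Figure D2:**
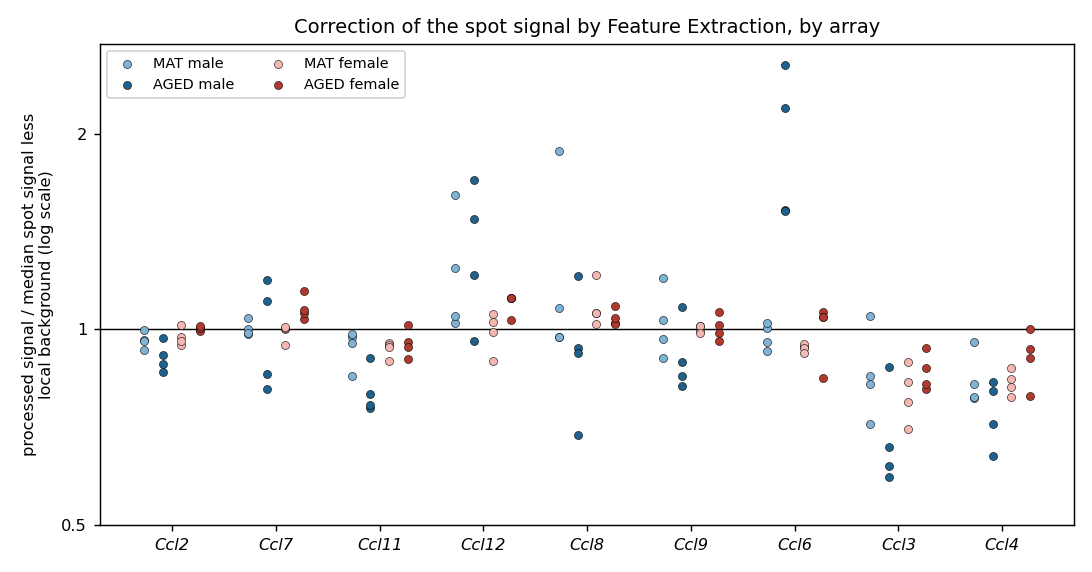
Ratio of the processed signal to the median spot signal less local background, for the probe of each of 9 CC chemokines. The vertical axis is a log scale, 1 means that both signals are equal, and points are single arrays, 4 per group. Ccl6 on the AGED male arrays lies between 1.52 and 2.55, above the other 3 groups, Ccl8 reached 1.88 on MAT male replicate 4, and Ccl12 reached 1.61 on MAT male replicate 2 and 1.70 on AGED male replicate 3.

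Among the ligands of Ccr2, the group means of AGED females were the higher ones but single arrays crossed over. Ccl2, the main monocyte attractant, gave 0.51, -0.42, 2.61 and 0.32 in MAT females and 1.35, 1.83, 2.02 and 3.14 in AGED females. Its MAT replicate 3 lay above 3 of the 4 AGED arrays. The female log2 change of Ccl2 was 1.33 ± 0.60 (SE), 2.51-fold (two-sided exact permutation p = 0.114, limma adjusted p = 0.454). Ccl7, a monocyte attractant encoded beside Ccl2, gave -0.36, -0.94, 1.73 and -0.99 in MAT females and 0.80, 1.46, 1.63 and 2.91 in AGED females. Here MAT replicate 3 again fell inside the AGED range, and the other 3 MAT females lay below it. The log2 change of Ccl7 was 1.84 ± 0.77 (SE), 3.58-fold and the widest of the set (exact permutation p = 0.114, limma adjusted p = 0.418). Ccl12, which exists in the mouse as a further ligand of Ccr2, gave -0.24, -0.29, 1.39 and -0.88 in MAT females and 1.09, 0.70, 1.26 and 2.22 in AGED females, a log2 change of 1.32 ± 0.66 (SE, exact permutation p = 0.114, limma adjusted p = 0.509).

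In males this trio showed no common direction. The Ccl2 signal was -0.02, 2.43, 1.36 and 1.67 in MAT males and 1.56, 1.10, 1.63 and 2.13 in AGED males (log2 change 0.25 ± 0.60 SE, adjusted p = 0.866). Ccl7 was -0.70, 1.63, -0.04 and 1.03 in MAT males and 0.95, 0.08, -2.29 and 0.69 in AGED males (log2 change -0.63 ± 0.77 SE, adjusted p = 0.714). Ccl12 was 0.15, 1.68, 0.17 and 0.21 in MAT males and 1.59, 0.30, -1.57 and 1.67 in AGED males (log2 change -0.05 ± 0.66 SE, adjusted p = 0.976). AGED male replicate 3 was the lowest of all 16 arrays for Ccl7 and Ccl12 but not for Ccl2. The age change of Ccl7 differed between the sexes by -2.47 (males minus females, 95% confidence interval -4.78 to -0.16), an interval that excludes 0, but the difference failed the correction over all genes (limma adjusted p = 0.476). The interval for Ccl2 was -2.90 to 0.73 and that for Ccl12 was -3.37 to 0.62.

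Ccl8 had positive fitted changes in both sexes. It gave 4.46, 4.53, 4.12 and 3.57 in MAT males and 6.13, 4.92, 4.17 and 5.13 in AGED males. Of the AGED males, 3 lay above every MAT male. The male log2 change was 0.92 ± 0.44 (SE), 1.89-fold (exact permutation p = 0.0857, limma adjusted p = 0.32), and without AGED male replicate 1 it was 0.57. With the normexp correction the male change was 1.30 (limma adjusted p = 0.139). The ratio of processed to median spot signal for Ccl8 ran from 0.97 to 1.88 on MAT males and from 0.69 to 1.21 on AGED males. The part of the signal correction in the male change was not tested. In females Ccl8 gave 4.31, 4.73, 5.13 and 3.90 in MAT and 4.49, 5.16, 5.07 and 6.49 in AGED arrays, which overlapped (log2 change 0.78 ± 0.44 SE, adjusted p = 0.568). The age changes of both sexes differed by 0.13, with an interval of -1.20 to 1.46 that leaves room for a difference of more than 2-fold either way.

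Ccl11, the eosinophil attractant, had the smallest standard error of the 9. In MAT females it was -0.08, -0.75, -0.55 and -0.87 and in AGED females 0.16, 0.35, -0.36 and 0.30. Of the AGED females, 3 lay above all MAT females, and AGED replicate 3 lay among the latter. The female log2 change of Ccl11 was 0.68 ± 0.21 (SE), 1.60-fold (exact permutation p = 0.0571, limma adjusted p = 0.28). The 4 MAT males ranged from -0.36 to -0.00 and the AGED males from -0.61 to 0.28 (log2 change 0.01 ± 0.21 SE, adjusted p = 0.989). The difference between the sexes in the age change was -0.67 (-1.31 to -0.02, limma adjusted p = 0.493). Of the 9 members, Ccl7 and Ccl11 passed an unadjusted limma p under 0.05 for that difference with the smaller change in males, against 5.12% of all genes, and 0 of 9 passed in the other direction (4.75%). At an adjusted p under 0.05 the difference passed for 0 of 9 members and 0.149% of all genes.

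Ccl3 and Ccl4, the macrophage inflammatory proteins, spread most widely in AGED males. In that group Ccl3 was 0.53, -3.28, -3.60 and -2.56 and Ccl4 was 1.5, -3.17, -3.86 and -3.88. Replicate 1 stood far above the other 3 arrays for both genes. MAT males gave -3.34, -1.13, -2.93 and -1.20 for Ccl3 and -2.97, -1.36, -2.62 and -0.87 for Ccl4. The male log2 change was -0.08 ± 0.81 (SE, adjusted p = 0.972) for Ccl3 and -0.40 ± 1.02 (SE, adjusted p = 0.875) for Ccl4. Without AGED male replicate 1 these values were -1.0 and -1.68, with limma adjusted p = 0.447 and 0.222. In females Ccl3 ran from -3.82 to -1.97 in MAT and from -2.66 to -0.65 in AGED arrays (log2 change 0.99, adjusted p = 0.736), and Ccl4 from -2.79 to -1.53 and from -2.70 to 0.78 (log2 change 1.15, adjusted p = 0.758). AGED female replicate 4 was the highest female array for both.

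**Figure D3:**
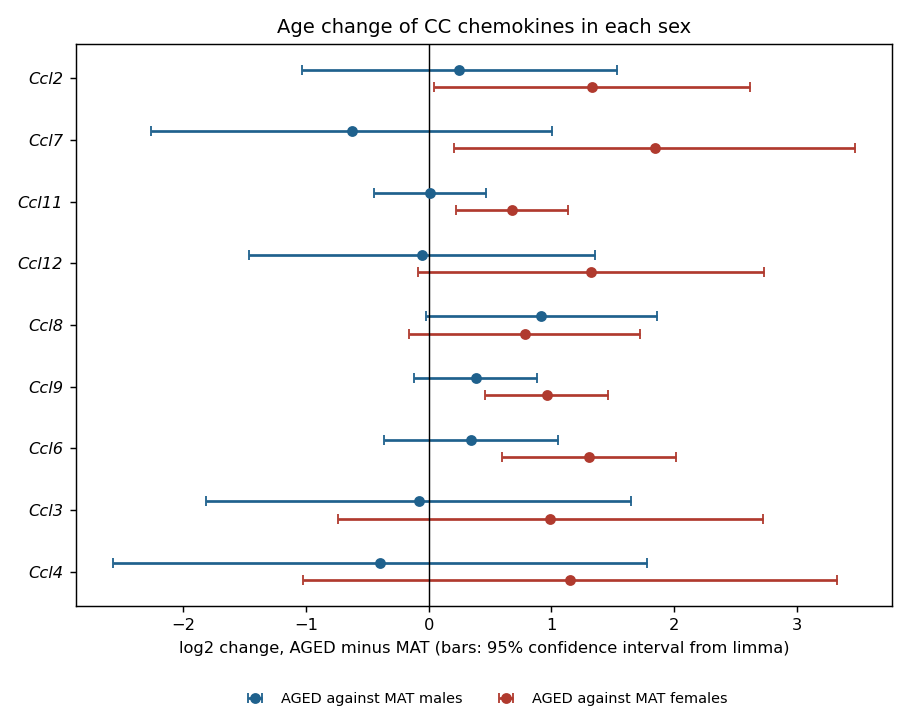
Log2 change of 9 CC chemokines, AGED minus MAT (horizontal axis), in males and in females; points are limma estimates and bars 95% confidence intervals, with genes listed in chromosomal order and Ccl2 at the top. All 9 female estimates lie above 0, 5 of them with an interval that excludes 0, and all 9 male intervals include 0.

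Leaving out each of the 16 arrays in turn changed which chemokines passed the unadjusted limit in females. Ccl6, Ccl9 and Ccl11 stayed under 0.05 in 16 of 16 such fits, with a highest unadjusted limma p of 0.00616, 0.00458 and 0.0248, respectively, each without MAT female replicate 4. Ccl7 passed in 12 of 16 fits and Ccl2 in 6 of 16. The count was 3 of 9 when any of MAT female replicates 1, 2 and 4 or AGED female replicate 4 was dropped, and 6 of 9 when MAT female replicate 3 or AGED female replicate 1 was. The fitted female change stayed positive for all 9 genes in each of these fits. Without AGED female replicate 4, however, it was 0.50 in place of 1.15 for Ccl4, 0.54 in place of 0.99 for Ccl3 and 0.39 in place of 0.78 for Ccl8, and no other female change moved by more than 1.5 times when 1 array was left out.

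Arrays that were high for 1 of these chemokines within their group tended to be high for the others. For each array the deviation from its own group mean was taken, which removes age and sex, and the 36 pairs of genes were compared over 16 arrays by permutation of arrays within groups (100000 permutations). Pearson's r ran from -0.09 to 0.93, was positive in 34 of 36 pairs, and reached a Benjamini-Hochberg adjusted p under 0.05 in 12 pairs, 7 of them also by Spearman's rho. Pairs of other genes were not compared in this way, so these counts cannot show whether moving together is particular to the chemokines. Ccl3 and Ccl4 gave r = 0.93 (p = 0.00063, adjusted p = 0.0113) and rho = 0.83 (p = 0.00181, adjusted p = 0.0298). Without the 2 arrays farthest from the median, AGED male replicate 1 and AGED female replicate 4, r was 0.85, and it was 0.95 within males and 0.89 within females, that is, within each slide. Ccl7 and Ccl12 gave r = 0.91 (permutation p = 0.00035, adjusted p = 0.0113) and rho = 0.84 (p = 0.00106, adjusted p = 0.0298), with r = 0.84 without the 2 farthest arrays, the same for both genes, and 0.91 and 0.93 within males and females.

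Other pairs were less even between the sexes. Ccl2 and its neighbour Ccl7 gave r = 0.75 (permutation p = 0.00216, adjusted p = 0.0166) and rho = 0.73 (adjusted p = 0.0326), but r was 0.54 within males and 0.97 within females. It was 0.63 without the 2 arrays farthest from the median of Ccl2 and 0.86 without the 2 farthest from that of Ccl7. Ccl9 and its neighbour Ccl6 gave r = 0.77 (permutation p = 0.00338, adjusted p = 0.0174) and rho = 0.76 (adjusted p = 0.0298), with 0.89 within males and 0.64 within females, and r was 0.75 without the 2 arrays farthest for Ccl9 and 0.72 without those farthest for Ccl6. Under the normexp correction the value for Ccl9 and Ccl6 was 0.51. Ccl6 also followed Ccl3, its neighbour on the other side (r = 0.81, adjusted p = 0.0174), and Ccl7 at the other end of the cluster (r = 0.80, adjusted p = 0.0166). Ccl11 stood apart although it lies between Ccl7 and Ccl12, with r = 0.01 (permutation p = 0.982) and -0.08 (permutation p = 0.814) against these neighbours, and 0 of its 8 pairs passed.

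**Figure D4:**
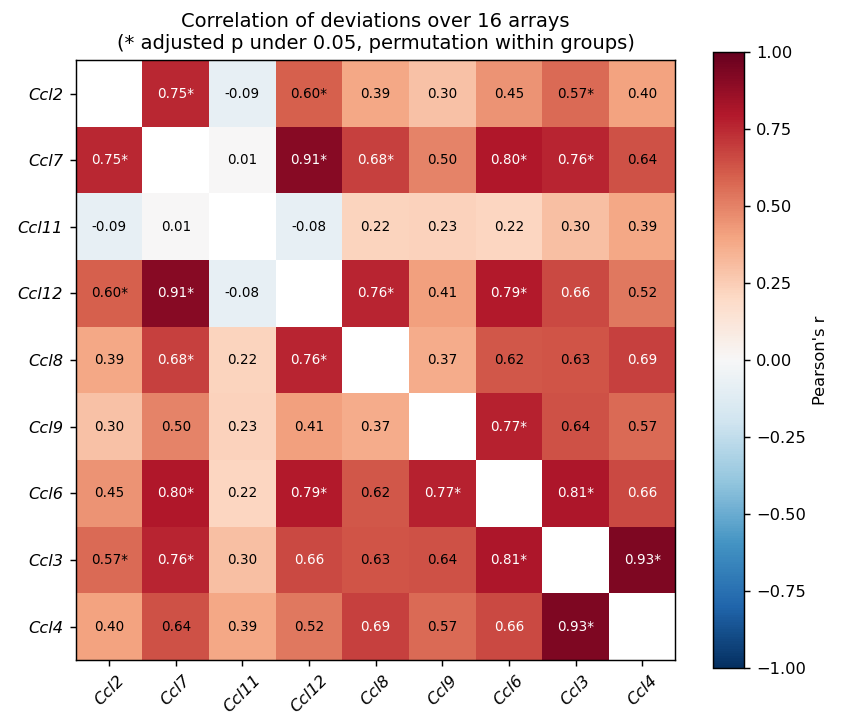
Pearson's r of deviations from the group mean over 16 arrays for all 36 pairs of 9 CC chemokines, in the order of the genes along chromosome 11; stars mark a Benjamini-Hochberg adjusted p under 0.05. Ccl3 with Ccl4 (0.93) and Ccl7 with Ccl12 (0.91) are the strongest, and the row of Ccl11 holds no starred pair.

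These correlations rested on few arrays. MAT female replicate 3 lay above its group mean for 9 of 9 genes, by 0.93 on average, AGED male replicate 1 for 8 of 9, by 1.28, and AGED female replicate 4 for 8 of 9, by 0.88. AGED male replicate 3 lay below its group with a mean deviation of -1.0. Without MAT female replicate 3 the number of pairs that passed was 2 in place of 12, and without any other single array it was 9 to 17. The correlation of Ccl3 with Ccl4 was 0.85 to 0.96 and that of Ccl7 with Ccl12 was 0.86 to 0.95 whichever array was left out.

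**Figure D5:**
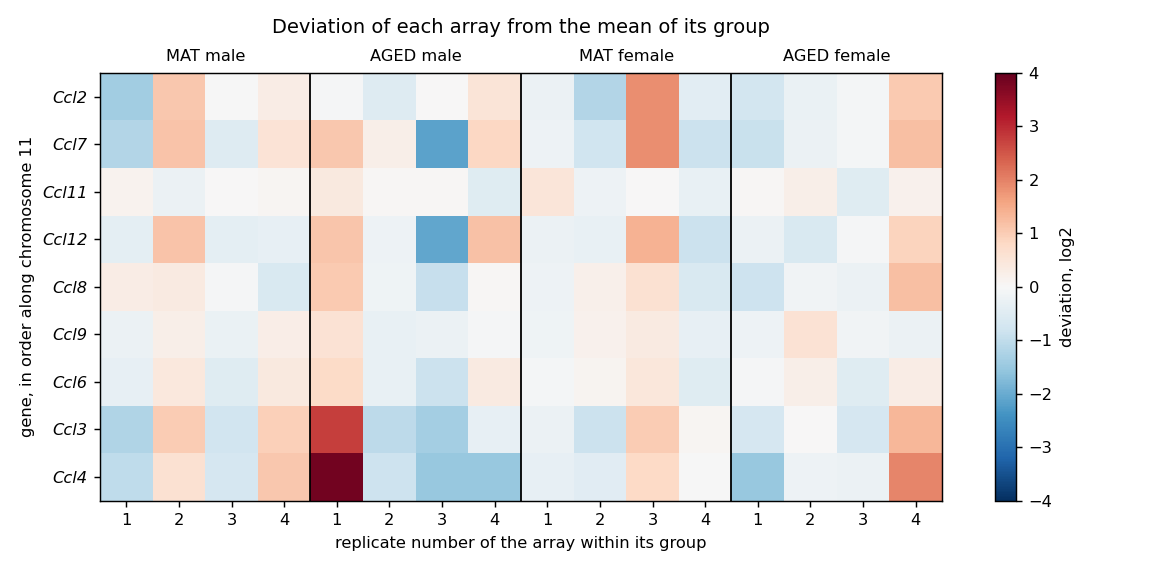
Deviation of the log2 signal of 9 CC chemokines from the mean of the group (colour, log2 units) on each of 16 arrays (columns, by group and replicate number), with genes in chromosomal order from top to bottom. MAT female replicate 3 is above its group mean for all 9 genes, and AGED male replicate 1 for 8 of 9, most of all for Ccl4 and Ccl3.

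Macrophage markers were high on AGED male replicate 1 and AGED female replicate 4, but the other leukocyte lists did not all follow. AGED male replicate 1, which was high for the chemokines, had a mean of 3.34 over 10 macrophage and monocyte markers, against 2.07 to 2.19 in the other AGED males. Its mean over 10 T and NK cell markers was -0.23, against -2.74 to -2.0 in the other AGED males, and their summed signal was 30.1 against 4.96 to 6.57. Its mean over 6 dendritic cell markers was -2.07, inside the -2.87 to -1.69 of the other AGED males. AGED female replicate 4 had a macrophage mean of 3.06, against 2.30 to 2.41 in the other AGED females. Its T and NK cell mean was -1.91, inside the -2.20 to -0.90 of the other AGED females. MAT female replicate 3 was not set apart in this way, since the MAT female macrophage means ran from 1.87 to 2.19. The part of macrophages, T cells and NK cells in the chemokine values was not tested.

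In females the leukocyte markers did not pass the test, but some were higher at an unadjusted p. At an unadjusted limma p under 0.05, 4.61% of all genes were higher and 5.85% lower in females. Of 10 macrophage and monocyte markers, 0 were called, and at an unadjusted limma p under 0.05 3 were higher (C1qa, C1qb and Fcgr1) and 1 lower (Itgam), named here after their values were seen. The mean of the list was 1.87 to 2.19 in MAT and 2.30 to 3.06 in AGED females, while the summed signal of the list overlapped (109 to 119 in MAT and 92.3 to 157 in AGED, in units of the 75th percentile). All 10 were well above background on 16 of 16 arrays, and the brightest, Csf1r, the receptor of macrophage growth factor, had a log2 change of -0.08 (adjusted p = 0.933). Of 7 neutrophil markers, 0 were called and 4 were higher (S100a8, S100a9, Cxcr2 and Retnlg) and 1 lower (Elane) at an unadjusted p, with a list mean of -1.87 to -1.40 in MAT and -1.20 to -0.55 in AGED females and a sum of 82.7 to 90.2 and 74.1 to 108. Cxcr2 was well above background on only 4 of 16 arrays. The part of these cells in the female chemokine values was not tested.

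In males 2 of the 50 leukocyte markers tested were called higher, both of them neutrophil proteins that bind calcium, against 0.276% of all genes. S100a8 had a log2 change of 2.43 (limma adjusted p = 0.0211) and S100a9 of 3.08 (adjusted p = 0.0125), and their groups did not overlap. As with Chil3, the study's own list gives S100a9 as lower in aged bladders, opposite to the array labels. In males 3.91% of all genes were higher without overlap. The neutrophil list did not rise as a whole in males, where 3 of its 7 markers had a positive fitted change and the median was -0.01. The female changes were 1.12 (limma adjusted p = 0.436) for S100a8 and 1.62 (adjusted p = 0.323) for S100a9. The mean over the 9 chemokines overlapped between MAT males (0.35 to 1.58) and AGED males (0.02 to 2.31), and also between MAT females (0.10 to 1.45) and AGED females (1.11 to 2.55). Of 11 eosinophil and mast cell markers tested, 0 were called in either sex, with 2 lower in males and 1 higher in females at an unadjusted p. Epx, the eosinophil peroxidase, was not tested because it stayed too close to background. The markers of T and NK cells (10 tested), B and plasma cells (6) and dendritic cells (6) also gave 0 calls in either sex, with 2 T and NK cell markers higher and 2 lower and 3 dendritic cell markers lower in males, and 1 dendritic cell marker lower in females, at an unadjusted p. Of all genes, 7.86% were higher and 8.36% lower in males at that unadjusted limit, and 4.61% and 5.85% in females.

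The receptors that read these ligands gave 0 calls of 14 tested in either sex, 9 of them signalling receptors and 5 atypical receptors, which bind chemokines without the usual signal. Ccr1 was too close to background to be tested. At an unadjusted limma p under 0.05, Ccr4 and Ackr1 were higher and Ackr4 lower in males, and Ackr2 and Ackr4 were higher and Ccr6 lower in females. The shares of all genes at that limit were 7.86% higher and 8.36% lower in males, and 4.61% and 5.85% in females. The median log2 change of the 9 signalling receptors was -0.17 in males and -0.22 in females. Ccr2, the receptor of Ccl2, Ccl7 and Ccl12, changed by -0.58 (adjusted p = 0.618) in males and 0.19 (adjusted p = 0.95) in females. Ccr7, a receptor of dendritic and T cells, changed by -0.87 (adjusted p = 0.502) and -0.34 (adjusted p = 0.909), and Ccr6 by -0.52 (adjusted p = 0.638) and -1.17 (adjusted p = 0.433). Among the atypical receptors, Ackr3 changed by 0.07 and -0.06, Ackr2, which removes inflammatory CC chemokines, by -0.30 (adjusted p = 0.564) and 0.56 (adjusted p = 0.43), and Ackr1 of venules by 0.55 (adjusted p = 0.217) and 0.22 (adjusted p = 0.793).

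The rest of the CC family gave 0 calls among 8 tested in either sex, with a median log2 change of -0.19 in males and -0.36 in females. At an unadjusted limma p under 0.05, 0 passed in males, and Ccl25 was higher and Ccl27a lower in females. Over all genes that limit gave 7.86% higher and 8.36% lower in males, and 4.61% and 5.85% in females. Of the 8, 2 had a positive fitted change in females. Ccl5, a T cell chemokine that lies within the same stretch of chromosome 11, changed by 0.94 (limma adjusted p = 0.574) in males and 0.07 (adjusted p = 0.988) in females. Ccl27a, an epithelial chemokine, changed by -0.31 (adjusted p = 0.418) and -0.64 (adjusted p = 0.22), and Ccl25 by -0.08 (adjusted p = 0.784) and 0.38 (adjusted p = 0.28). Of 13 cytokines and signalling genes known to induce CC chemokines, 0 were called, with medians of 0.20 in males and 0.27 in females, and at an unadjusted p 1 was lower in males and 2 were higher in females. Nfkbia, the inhibitor induced by NF-kB, changed by -0.33 (adjusted p = 0.471) in males and 0.27 (adjusted p = 0.71) in females, and Il33, an alarm cytokine of barrier cells, by -0.36 (adjusted p = 0.51) and 1.17 (adjusted p = 0.092). Stat6 changed by -0.08 (adjusted p = 0.769) and -0.09 (adjusted p = 0.859).

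Among 15753 genes, those whose signal over the 16 arrays was most like that of Ccl9 were Dmkn (Pearson's r = 0.91), Stat2 (0.89), Rnf183 (0.89), Ccl6 (0.88) and Plac8 (0.87). For Ccl6 they were Sh3bp2 (0.91), Polr2l (0.91), Mgat1 (0.91), Ifi204 (0.89) and C5ar1 (0.89). These values are descriptions, since the arrays share group differences and slides. Ccl6 and Ccl9 had female groups that did not overlap, so genes chosen for likeness to them tend to carry a female age change. Such a change is therefore not a separate result. Stat2, which carries the interferon signal, passed the adjusted p in females with a log2 change of 0.97 (adjusted p = 0.0219), short of the 2-fold limit, and Ifi204, an interferon-induced gene, was called there with 1.35 (adjusted p = 0.0407). Their male changes were 0.22 (adjusted p = 0.458) and 0.31 (adjusted p = 0.558). The other genes of these lists did not pass in females, with a limma adjusted p from 0.0859 (Plac8) to 0.461 (Sh3bp2). Ccl7 and Ccl12 were each other's closest of all genes (r = 0.91), and Ccl4 ranked 2 for Ccl3 (r = 0.90), whereas the closest member to Ccl11, Ccl6, ranked 331 (r = 0.59). The closest member ranked 4 for Ccl9, 5 for Ccl4, 7 for Ccl6, 9 for Ccl2 and 196 for Ccl8 (Ccl12, r = 0.71).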

How the data were processed

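Bladder RNA was labelled with Cy3 and hybridised to 16 Agilent mouse arrays of 62976 spots. The deposited scanner files hold spot intensity (median and processed signal), which the authors made with Agilent Feature Extraction, version 10.7.3.1 per the file headers and 9.1 per the labels. The deposited value table holds log2 values, found here to be the log2 processed signal, scaled per array, less the median of each probe (median differences per array of -0.0135 to 0.00502). Here the log2 processed signal was reduced by the 75th percentile of each array. Spots of 1 probe were averaged, of which Ccl2 had 10 and every other member 1. Probes well above background on at least 4 arrays were kept (36974 of 55681), and 26582 probes were named through accessions in the RefSeq table. For a gene with several probes the one of highest mean signal was used. Groups were fitted in 1 model of 4 means with limma 3.58.1 in R 4.3.3, and p-values were adjusted over 26781 genes. The number of arrays limits the precision. Tested on simulated data for females, the fit called 76 of 100 genes given a log2 change of 1.5 and 95 of 100 given 2.5. Those genes were drawn at random from all tested, each with its own spread and with noise independent between genes. The shares do not say how often a change of a chemokine would be called, since the SE of the members ran from 0.21 (Ccl11) to 1.02 (Ccl4). The members and gene lists were chosen with earlier results of these data known. All 10 members are described. From the other lists, genes called in either sex were named, or else the 3 brightest, and the 5 genes most like Ccl6 and Ccl9. Genes of these lists that passed only an unadjusted p were in part named as well, after their values were seen. Alternatives covered scaling, background, filters, probe choice, the test, weights, each slide alone, the replicate block and leaving out each array.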

Additional observations from a re-analysis of the deposited data

Results flagged for a closer look

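Arrays were marked where 1 of 4 values in a group lay far from the rest, by the ratio of its gap to the range of the group against Dixon's 95% limit. By chance about 5% of groups are marked. Of 36 combinations of chemokine and group, 3 were marked (8.33%). Ccl4 of AGED male replicate 1 was 1.5, against -3.88 to -3.17 in the other AGED males (ratio 0.869). Ccl9 of AGED female replicate 2 was 4.02, against 3.22 to 3.31 (ratio 0.894). Ccl12 of MAT male replicate 2 was 1.68, against 0.15 to 0.21 (ratio 0.963). On that array the processed Ccl12 signal was 1.61 times the median spot signal less local background, against 1.02 to 1.24 times on the other MAT males, and the part of this correction in the value was not tested.

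Of 56 combinations of gene list and group, 2 were marked (3.57%), both for the mean of the macrophage and monocyte markers. It was 3.34 on AGED male replicate 1, against 2.07 to 2.19 (ratio 0.905), and 3.06 on AGED female replicate 4, against 2.30 to 2.41 (ratio 0.854). AGED male replicate 1 was also marked for its 75th percentile of 9.18, against 9.90 or more (ratio 0.877). The part of macrophage RNA or of the dimmer array in the chemokine values of these arrays was not tested.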

How the results depend on the processing

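The count of chemokines called by limma was 0 in both sexes in nearly all settings. It was 1 in females by the methods' t-test without adjustment (Ccl6) and 2 with array weights (Ccl6 and Ccl9). It was 0 whichever array was left out. The female count at an unadjusted p ran from 3 to 6 without single arrays, or from 1 to 5 with a 2-fold limit, and the male count from 0 to 1, and the male count was 2 under normexp (Ccl8 and Ccl9), 1 with each sex fitted alone and 1 with a variance trend (Ccl8 in both). These unadjusted counts, the counts of groups that did not overlap and the pair correlations were added after seeing the data. The number of correlated pairs was 7 under normexp and 2 to 17 without single arrays. Leukocyte markers called in males numbered 5 under normexp, 6 by the unadjusted t-test, 0 by the adjusted t-test and 0 with each sex alone, and 1 to 4 without single arrays. In females they numbered 3 by the unadjusted t-test and 1 with array weights, and 0 to 1 without single arrays. CC receptors called numbered 1 in males under normexp, 1 in females by the unadjusted t-test, and 0 to 1 in males without single arrays. The cause was not tested.

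All reversals were male values that did not pass the test. Ccl6 was -0.59 and Ccl3 0.25 under normexp, Ccl11 was -0.054 with median scaling and -0.10 with array weights, and Ccl12 was 0.0026 with array weights. Without single arrays the male log2 change ran from -0.21 to 0.60 for Ccl2, from -1.0 to 0.38 for Ccl3, from -1.68 to 0.11 for Ccl4, from -1.02 to 0.089 for Ccl7, from -0.13 to 0.17 for Ccl11 and from -0.45 to 0.63 for Ccl12. The count of chemokines whose age change differed between the sexes was 0 in every setting.

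The replicate numbers of the labels did not pair the arrays. The correlation of deviations between same-numbered MAT and AGED arrays was -0.14 to 0.07 in males and -0.15 to 0.06 in females. With the replicate number as a block, 0 chemokines were called in either sex, 5 were higher in females at an unadjusted p, and leukocyte markers called in males numbered 3.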
